A study of Mus musculus with 2 samples.

Results

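The enzymes of glycolysis that are known to differ between naive and primed pluripotency, with the kinase Pdk1 at its exit, were examined as 10 genes chosen by name among 26127 probes. They are Hk2, Gpi1, Pfkl, Pfkp, Aldoa, Tpi1, Gapdh, Pgk1, Ldha and Pdk1, here called the members. Each name matched 1 probe. RNA was sequenced from 2 mouse embryonic stem (ES) cell cultures of strain 129S1/SvImJ, at fewer than 20 passages, in medium with 15% foetal calf serum and leukaemia inhibitory factor (LIF). WT cells were unmodified, with both copies of H3f3a and of H3f3b intact. G34R cells carried 1 targeted H3f3a allele that encodes glycine 34 replaced by arginine, driven by the endogenous promoter, beside a normal H3f3a copy and normal H3f3b. The mutant line came from gene targeting in culture and each group had 1 library, so genotype, clone and culture cannot be told apart and no test between the groups was possible. Levels are RPKM, reads scaled to transcript length and library size, and differences are given as log2 of G34R over WT, where any RPKM below 0.01 was raised to 0.01.

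Glycolysis splits glucose into pyruvate through a fixed chain of cytosolic enzymes and yields ATP without oxygen. Pyruvate is then either reduced to lactate by lactate dehydrogenase or passed to the mitochondria through pyruvate dehydrogenase, an entry that the Pdk kinases switch off by phosphorylation. Naive ES cells are known to use both routes, whereas primed pluripotent cells rely mostly on glycolysis, and the hypoxia-inducible factor HIF-1 is a known activator of many glycolytic genes.

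The libraries were estimated at 88.3 M reads for WT and 72.7 M for G34R, and 10728 genes had at least 1 RPKM in 1 of them, with a median log2 difference of -0.05. All 10 ES cell markers were above 1 RPKM in both libraries, with sums of 1752.89 RPKM in WT and 1484.2 RPKM in G34R. Among them the log2 difference was -0.04 for Pou5f1, 0.02 for Sox2, -1.28 for Nanog, -3.46 for Zfp42 and 0.81 for Utf1. Of 8 fibroblast markers 1 reached 1 RPKM in WT and 0 in G34R, and their summed level was 1.95 and 1.0 RPKM. Of 5 trophoblast markers in the files, 0 reached 1 RPKM in WT and 1 in G34R, with sums of 0.84 and 2.32 RPKM. Of 6 primitive endoderm markers, 0 and 2 did, with sums of 2.07 and 4.55 RPKM. The 3 neural markers summed to 1.52 and 19.3 RPKM, of which Olig2 alone made up 17.71 RPKM in G34R cells. The part of these lineage markers in the differences below was not tested. In bulk RNA, fewer cells of a type and less RNA per cell cannot be told apart. A gene's RPKM sums over its alleles, so the mutation in H3f3a could not be checked from these values.

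Gapdh had only 4.02 RPKM in WT and 3.03 RPKM in G34R, and the sequences of the pathway were therefore searched for copies elsewhere in the genome. For each gene 1 transcript was searched, the protein-coding one with the lowest number in its name. Other isoforms, which the RPKM also counts, were not searched. Each searched transcript was cut into all of its 50-base windows, the length of the reads, and every window was looked up in the mm9 genome. The most repeated coding window of Gapdh within 1 exon, which matched 84 places, lies at chr6:125112916-125112965 on the minus strand. A window of Ldha that matched 1 place lies at chr7:54106341-54106390 on the plus strand. These windows are shown because they set a highly repeated and a unique stretch of the pathway side by side.
Gapdh: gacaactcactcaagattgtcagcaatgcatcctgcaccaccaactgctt
Ldha: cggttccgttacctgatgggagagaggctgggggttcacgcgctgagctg

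Of the 1371 windows of Gapdh, 82.5% matched more than 10 places exactly and 14.4% matched 1 place. None of its 734 coding windows within 1 exon was unique (0 of 734). The reads were aligned with STAR at its default settings, which leave out a read that aligns to more than 10 places, so reads that match such windows exactly would not add to the RPKM of Gapdh. Its 4.02 and 3.03 RPKM are therefore no measure of its whole transcript level. Pfkl had 8 of 3681 windows past 10 places, and the other 19 of the 21 expressed glycolytic genes had 0. The searched transcripts of Hk2 and Pfkp were unique throughout, and that of Pdk1 in 99.9% of its windows. Pgk1 was unique in only 7.09% of its windows, Ldha in 66.2%, Gpi1 in 68.6%, Tpi1 in 76.4% and Aldoa in 84.8%. Reads from their shared windows were kept, but can be assigned to near-identical copies. The sequences and settings were the same for both libraries, and the part of the copies in the size of the levels and in the differences was not tested.

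**Figure D1:**
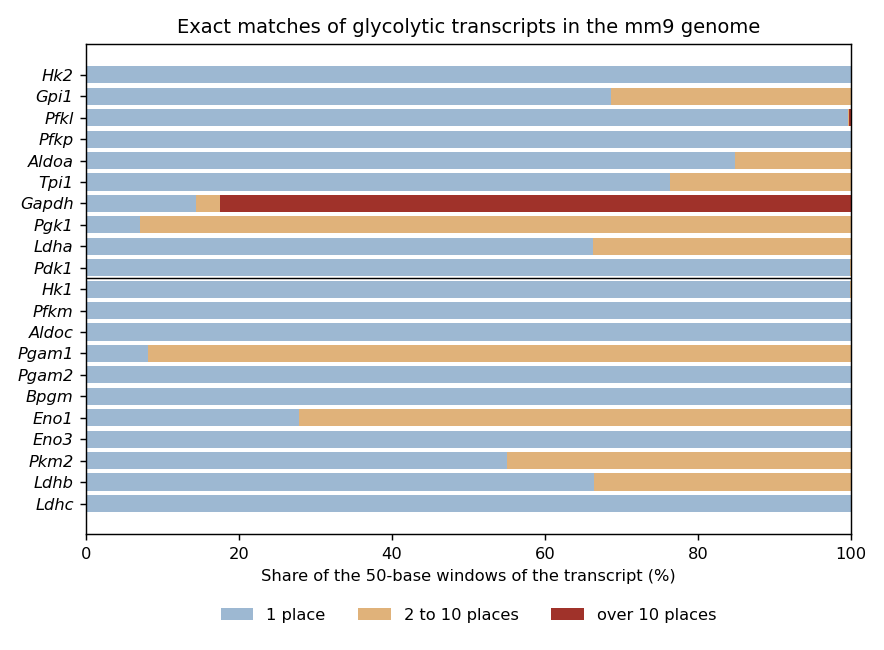
Share of the 50-base windows of each transcript (x axis, percent) that matched 1 place, 2 to 10 places or over 10 places of the mm9 genome exactly, for the 10 members above the line and 11 other expressed glycolytic genes under it. Gapdh stands apart with 82.5% of its windows past 10 places.

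Hk2, hexokinase 2, phosphorylates glucose and so traps it in the cell. It lies on chromosome 6 of mm9 from 82675019 to 82724448 on the minus strand. It had 42.6 RPKM in WT and 58.03 RPKM in G34R, a log2 difference of 0.45. The 95% counting interval of this difference was 0.42 to 0.47, from about 22453 and 25182 estimated reads. Such intervals are exact binomial intervals on estimated reads. They cover counting error only and not the variation between cultures, which 1 library per group cannot show.

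Gpi1, which converts glucose 6-phosphate to fructose 6-phosphate, had the largest positive difference of the members. It lies on chromosome 7 from 34987141 to 35015308 on the minus strand, and had 45.98 RPKM in WT and 65.96 RPKM in G34R. Its log2 difference was 0.52 (counting interval 0.48 to 0.56), a ratio of 1.43. The first 2 steps of the pathway were thus both higher in the G34R library.

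Phosphofructokinase commits sugar to glycolysis and is present as liver (Pfkl), muscle (Pfkm) and platelet (Pfkp) isozymes. Pfkl (chromosome 10, 77449692 to 77472828, minus strand) had 48.03 RPKM in WT and 44.65 RPKM in G34R, a log2 difference of -0.11. Pfkp (chromosome 13, 6579014 to 6648023, minus strand) had 23.27 RPKM in WT and 9.25 RPKM in G34R. It was 2.52 times lower in G34R cells, with a log2 difference of -1.33 (counting interval -1.39 to -1.27). Pfkp was the only member past 2-fold, and 4.21% of the 10728 genes had a lower value. Pfkm, which is not a member, went the other way, with 5.07 RPKM in WT and 12.89 RPKM in G34R (log2 difference 1.35).

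Aldoa, the aldolase that splits fructose bisphosphate, had the highest level of the members other than Gapdh in both libraries. Gapdh could not be ranked, as 82.5% of its windows lie past the limit of 10 places. Aldoa lies on chromosome 7 from 133938748 to 133944265 on the minus strand, and had 360.4 RPKM in WT and 335.49 RPKM in G34R (log2 difference -0.10). Tpi1, which interconverts the resulting triose phosphates, lies on chromosome 6 from 124760604 to 124764314 on the minus strand. It had 97.03 RPKM in WT and 78.99 RPKM in G34R, a log2 difference of -0.30 (counting interval -0.33 to -0.26). Both were lower in the G34R library, Aldoa close to the median of all genes.

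Gapdh oxidises glyceraldehyde 3-phosphate and is a common reference gene. It lies on chromosome 6 from 125111871 to 125116485 on the minus strand. Its 4.02 and 3.03 RPKM were the lowest levels of the 10 members. Tpi1, the step before it, was 24.1 times higher in WT cells and 26.1 times higher in G34R cells, and Pgk1, the step after it, 23.0 and 23.5 times higher. The log2 difference of Gapdh was -0.41 with a counting interval of -0.61 to -0.21, the widest of the members, from about 530 and 329 estimated reads. As 82.5% of its windows lie past the limit of 10 places, these ratios compare what was counted and not the transcripts.

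Pgk1 makes the first ATP of the pathway. It lies on chromosome X from 103382439 to 103399038 on the plus strand, and had 92.6 RPKM in WT and 71.1 RPKM in G34R, a log2 difference of -0.38 (counting interval -0.42 to -0.34). The 363 genes of chromosome X with at least 1 RPKM had a median difference of -0.21, against -0.05 over all genes, and its part in the value of Pgk1 was not tested. The medians of the chromosomes that hold the other members lay between -0.13 and -0.04.

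Ldha, the lactate dehydrogenase subunit that favours lactate, lies on chromosome 7 from 54096845 to 54110997 on the plus strand. It had 225.31 RPKM in WT and 153.18 RPKM in G34R, second to Aldoa in both among the members other than Gapdh. Its log2 difference was -0.56 (counting interval -0.58 to -0.53), a 1.47-fold lower level that stayed within 1.5-fold. Pdk1, which inhibits pyruvate dehydrogenase, lies on chromosome 2 from 71711281 to 71741915 on the plus strand. It was higher in G34R, at 17.99 RPKM, than in WT, at 14.56 RPKM (log2 difference 0.31, counting interval 0.26 to 0.35).

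**Figure D2:**
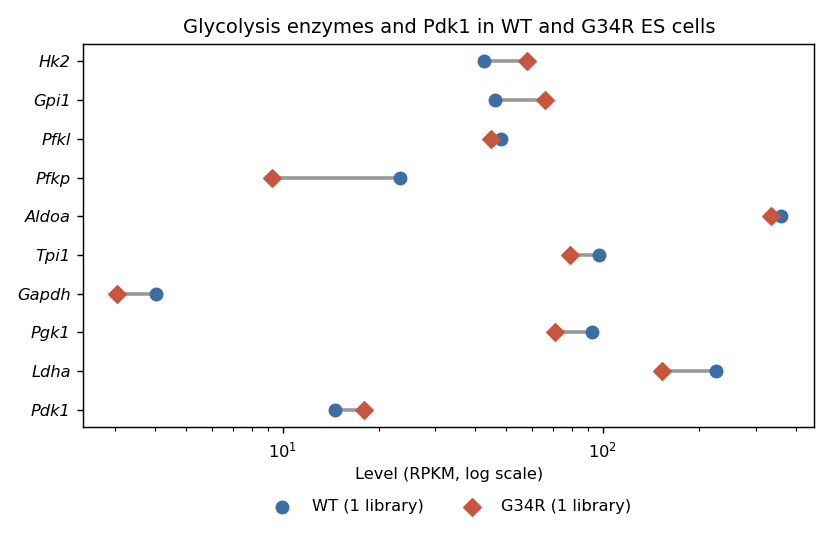
Level of each member (x axis, RPKM on a log scale) in the WT library (circles) and the G34R library (diamonds), joined by a line. As counted, Aldoa and Ldha are highest in both libraries and Gapdh is lowest, though most windows of Gapdh lie past 10 places. The widest gap is that of Pfkp, from 23.27 to 9.25 RPKM.

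Across the 10 members, 7 were lower and 3 higher in the G34R library, where 54.8% of all genes with at least 1 RPKM were lower. For the members the median log2 difference was -0.20 against -0.05 over all genes with at least 1 RPKM. Past 2-fold, 1 member was lower, beside 6.42% of all these genes, and 0 were higher, beside 4.09%. Past 1.5-fold, again only Pfkp was lower, beside 14.0% of all genes, and 0 were higher, beside 11.3%. Gpi1 and Ldha lay just inside this fold, at 0.52 and -0.56 against a limit of 0.585. Since 9 of the members had more than 10 RPKM in a library, the 3467 genes of at least 10 RPKM are a closer background. Their median log2 difference was -0.06 and 56.0% of them were lower, beside a median of -0.11 for the members at that minimum. Of those genes, 3.87% were lower and 3.37% higher past 2-fold, and 9.75% were lower and 9.2% higher past 1.5-fold. Of the 9 members at that minimum, 1 was lower past either fold. This is the smallest count above 0, so it cannot be set apart from these shares. With Gapdh counted only in part, the summed level of the 10 members was 953.8 RPKM in WT and 837.67 RPKM in G34R. Aldoa and Ldha held most of this sum. Without those 2 genes the sums were 368.09 and 349.0 RPKM.

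The order along the pathway was uneven. Hk2 and Gpi1 at its start and Pdk1 at the mitochondrial branch had the 3 positive differences, while the 7 members between phosphofructokinase and lactate dehydrogenase had negative ones. Other enzymes of the same stretch differed from this, with Pfkm at 1.35, Eno1 at 0.29 and the summed enolases at 0.21, while Pkm2, at -0.03, lay close to the median of all genes. Each member kept its sign under every scaling tried, but none of these scalings could have changed a sign. Of the shifts applied to all genes alike, centring was the largest, by the median of all genes, -0.05. The smallest member difference was -0.10 (Aldoa). Without Gapdh, a choice made after seeing the data, the median of the other 9 was -0.11.

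**Figure D3:**
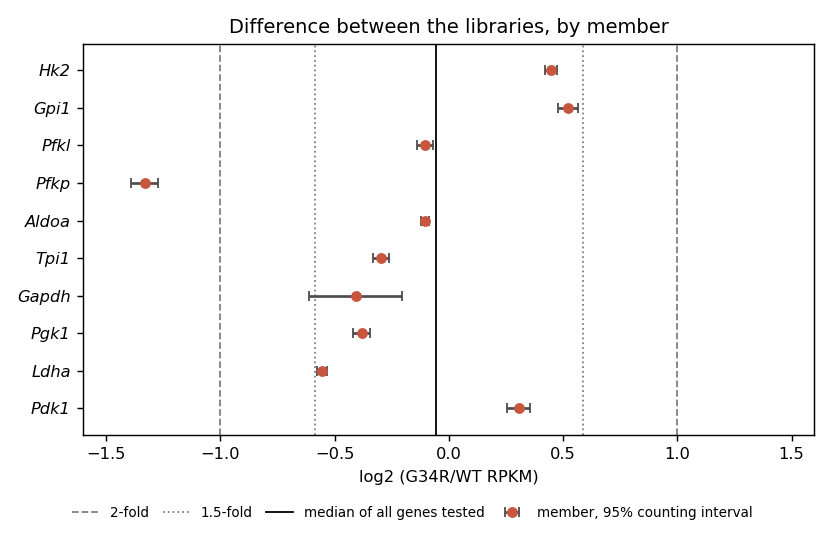
log2 (G34R/WT RPKM) of each member (points, x axis), in pathway order, with 95% counting intervals that do not include variation between cultures. Dotted and dashed lines mark 1.5-fold and 2-fold and the solid line the median of all 10728 genes, -0.05. Only Pfkp lies past a fold line.

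Isozymes of the same step were compared by their share of its summed RPKM. Hk2 held 88.3% of hexokinase RPKM in WT cells and 90.9% in G34R cells, with most of the rest from Hk1 at 5.12 and 5.65 RPKM. Pfkl held 62.9% and 66.9% of phosphofructokinase RPKM. The share of Pfkp was 30.5% in WT and 13.8% in G34R, and that of Pfkm 6.64% and 19.3%, so the order of these 2 isozymes was the opposite in the 2 libraries. The sum of all 3 differed by only -0.19 on the log2 scale, from 76.37 to 66.79 RPKM. Aldoa held 98.8% and 98.7% of aldolase RPKM, with 4.28 and 4.39 RPKM of Aldoc. Past the members, Eno1 held 89.1% and 93.8% of enolase RPKM.

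Ldhb, the subunit that favours pyruvate, had 29.74 RPKM in WT and 11.91 RPKM in G34R, a log2 difference of -1.32. Ldhc, known from testis, had 1.62 and 0.15 RPKM (-3.43). With both also lower, Ldha held a larger share of the lactate dehydrogenase sum in G34R (92.7%) than in WT (87.8%), although its own level was lower. The sum for this step was 256.67 RPKM in WT and 165.24 RPKM in G34R (log2 difference -0.64). Pdk1 held 55.2% of pyruvate dehydrogenase kinase RPKM in WT cells and 62.0% in G34R cells. Pdk3 had 10.43 and 8.40 RPKM, Pdk2 had 0.76 and 1.02 RPKM, and Pdk4 had 0.62 and 1.59 RPKM (log2 difference 1.36).

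**Figure D4:**
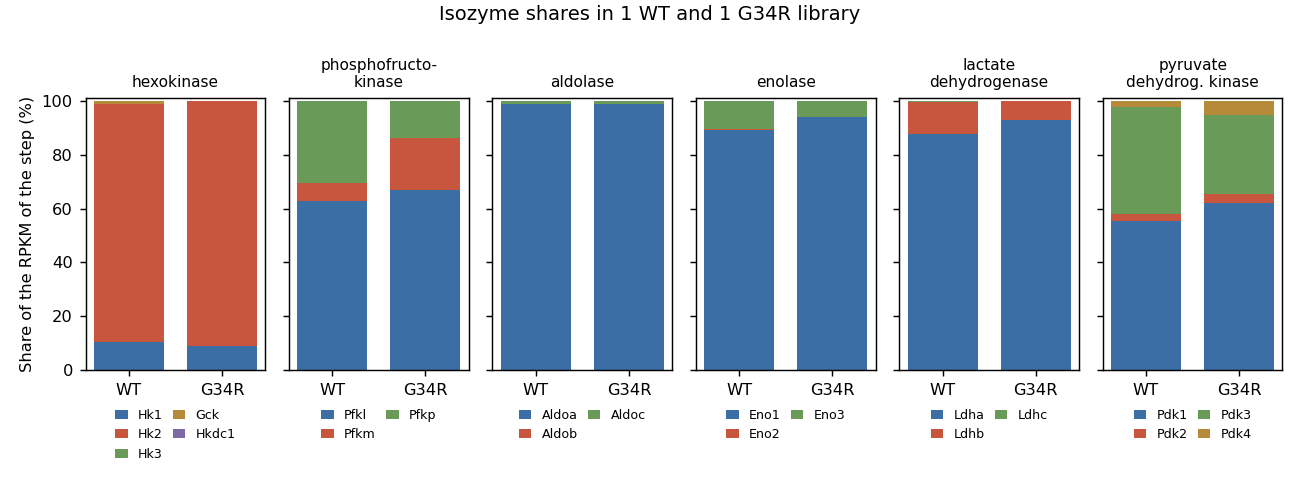
Share of the summed RPKM of 6 enzymatic steps (y axis, percent) held by each isozyme in the WT and the G34R library. The phosphofructokinase bars differ most, with Pfkp at 30.5% and 13.8% and Pfkm at 6.64% and 19.3%.

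The remaining enzymes of the chain were measured in the same way. Of 19 other isozymes and steps, 11 reached 1 RPKM, with a median difference of -0.03 that became 0.02 once centred on all genes. Past 1.5-fold, 3 were lower (Ldhb, Ldhc and the enolase Eno3, at 10.06 and 6.53 RPKM) and 1 was higher (Pfkm), where 14.0% and 11.3% of all genes were, a background that also holds for the lists that follow. Pkm2, pyruvate kinase, which makes the last ATP of glycolysis, had 598.89 RPKM in WT and 586.61 RPKM in G34R. This was above every member except Gapdh, whose whole level was not measured. Eno1, the main enolase, had 84.15 and 102.73 RPKM (log2 difference 0.29). Pgam1, phosphoglycerate mutase, had 54.43 and 46.34 RPKM (-0.23), Pgam2 had 1.55 and 1.95 RPKM, and Bpgm, which makes bisphosphoglycerate, had 2.16 and 1.95 RPKM. Pgam1 was unique in 8.14% of its windows, Eno1 in 27.8% and Pkm2 in 55.0%.

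Of 9 transport genes 6 reached 1 RPKM, with a median of -0.03 that became 0.02 once centred on all genes. The glucose transporters Slc2a1 (102.22 and 104.36 RPKM in WT and G34R cells) and Slc2a3 (80.13 and 75.58 RPKM) and the lactate transporter Slc16a1 (24.21 and 24.62 RPKM) differed by less than 0.1 on the log2 scale. Slc16a3, the lactate exporter, was the 1 gene past 1.5-fold, with 16.29 RPKM in WT and 9.54 RPKM in G34R (-0.77). Of the 7 genes with at least 1 RPKM of fructose bisphosphate regulation and gluconeogenesis, 3 were lower past 1.5-fold and 1 was higher, with a median of 0.23 that became -0.11 with no minimum RPKM. The lower ones were Pcx, pyruvate carboxylase, at 6.19 and 2.10 RPKM (-1.56), the phosphatase gene Fbp2 at 1.30 and 0.53 RPKM, and Pfkfb3, which makes an activator of phosphofructokinase, at 1.91 and 1.0 RPKM. The higher one was G6pc3, a glucose 6-phosphatase, at 1.86 and 3.53 RPKM.

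At the pyruvate dehydrogenase branch that Pdk1 controls, 13 of 14 other genes reached 1 RPKM, with a median of 0.15. Past 1.5-fold 3 were higher and 1 was lower. Pdhb, a subunit of the enzyme, had 27.69 RPKM in WT and 41.58 RPKM in G34R (0.59), beside Pdk4 and Pdpr, a regulator of the activating phosphatase, at 4.99 and 8.69 RPKM. Pdpr lies on chromosome 8, where 595 genes had a median difference of 0.36, and the part of this in its value was not tested. The lower one was Pdp1, the activating phosphatase, at 1.62 and 0.82 RPKM. In the TCA cycle all 16 genes reached 1 RPKM and 0 passed 1.5-fold, with values between -0.47 and 0.29 and a median of 0.04. Its highest genes were Cs, citrate synthase, at 56.19 and 54.05 RPKM, and Mdh2, malate dehydrogenase, at 54.50 and 57.47 RPKM. In the pentose phosphate pathway 0 of 6 passed 1.5-fold and the median was 0.20. The highest there were Tkt, transketolase, at 48.81 and 54.77 RPKM, and Taldo1, transaldolase, at 47.70 and 45.63 RPKM.

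**Figure D5:**
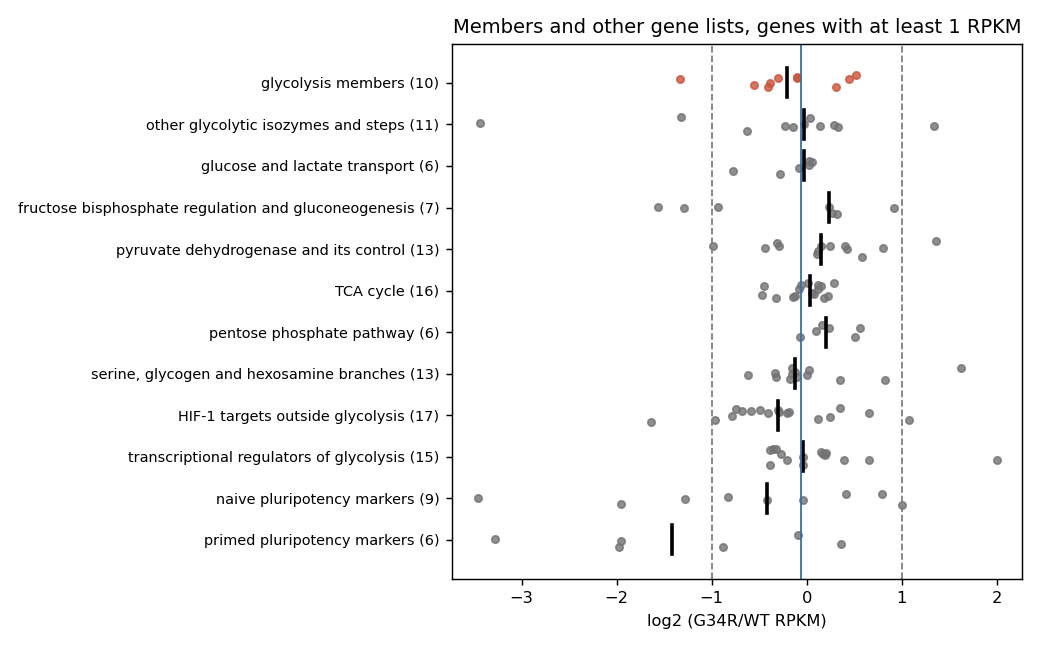
log2 (G34R/WT RPKM) of the members (top row) and of the genes of the other lists with at least 1 RPKM (x axis). Each point is a gene, its height within a row is random, black bars are list medians, the solid line is the median of all genes and dashed lines mark 2-fold. The number of genes follows each list name. The TCA cycle genes lie between -0.47 and 0.29.

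HIF-1 binds DNA at a short core, and glycolytic promoters are textbook sites of it. The letters ACGTG and GCGTG were searched on both strands in the 250 bases before the start of the protein-coding transcript with the lowest number in its name. A CACGTG is found on both strands and so counts as 2 overlapping matches. Of the 10 members 4 held ACGTG and 5 held GCGTG, beside 17.5% and 33.0% of the 22207 promoters read. In all 8 members held at least 1 of them, beside 43.0% of promoters, and Gpi1 and Tpi1 held neither. The 22207 promoters include those of genes under 1 RPKM. Among the 21 glycolytic genes with at least 1 RPKM, members included, 66.7% held at least 1 match. Matches were found both in members that were higher in G34R cells (Hk2, Pdk1) and in members that were lower (Pfkp, Ldha, Pgk1). No binding was measured in these libraries, so the matches are a description of the letters only. The stretches that hold the matches are shown for the member with the largest difference, Pfkp, for Ldha, which held the most matches, and for Hk2 and Pgk1, which held 2 ACGTG each. They are read from mm9 at chr13:6648024-6648168 (minus strand), chr7:54101014-54101208 (plus strand), chr6:82724481-82724689 (minus strand) and chrX:103382274-103382327 (plus strand), with the matches in capitals.
Pfkp: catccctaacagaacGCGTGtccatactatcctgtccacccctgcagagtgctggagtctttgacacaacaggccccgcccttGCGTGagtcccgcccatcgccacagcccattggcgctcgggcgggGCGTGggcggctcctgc
Ldha: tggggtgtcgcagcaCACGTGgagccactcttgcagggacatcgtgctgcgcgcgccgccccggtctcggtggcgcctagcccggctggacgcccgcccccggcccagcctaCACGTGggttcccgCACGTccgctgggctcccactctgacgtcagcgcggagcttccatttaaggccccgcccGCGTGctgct
Hk2: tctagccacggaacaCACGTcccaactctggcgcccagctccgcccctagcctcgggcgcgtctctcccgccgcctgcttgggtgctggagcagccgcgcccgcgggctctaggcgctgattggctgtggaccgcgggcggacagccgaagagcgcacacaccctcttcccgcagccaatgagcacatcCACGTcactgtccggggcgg
Pgk1: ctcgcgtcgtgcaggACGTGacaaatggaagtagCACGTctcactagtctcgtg

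Of the regulators, Hif1a, the oxygen-regulated subunit of HIF-1, had 15.44 RPKM in WT and 12.34 RPKM in G34R (log2 difference -0.32). Epas1, which encodes the related HIF-2 alpha, was 4.0 times higher in G34R cells, at 18.47 RPKM against 4.62 RPKM. Myc, another activator of glycolytic genes, had 4.76 and 7.49 RPKM (0.65). Epas1 and Myc were the 2 regulators of 15 past 1.5-fold, and the median of the list was -0.04, or 0.02 once centred on all genes.

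Of 20 HIF-1 targets outside glycolysis 17 reached 1 RPKM, with a median of -0.30 that became -0.74 with a minimum of 10 RPKM. Past 1.5-fold, 5 were lower and 2 higher, beside 14.0% and 11.3% of all genes. The lower ones were Bnip3, a mitophagy receptor, at 21.15 and 6.81 RPKM (-1.63), the demethylase gene Kdm3a at 24.76 and 12.66 RPKM (-0.97), Plod2, a collagen lysyl hydroxylase, at 11.17 and 6.46 RPKM, Fam162a at 42.09 and 25.23 RPKM, and Stc2, a secreted glycoprotein, at 1.79 and 1.12 RPKM. P4ha1, a collagen prolyl hydroxylase, lay exactly at 1.5-fold, at 7.56 and 5.04 RPKM, and was not counted as past it. The 2 higher ones were Egln3, a prolyl hydroxylase that marks HIF for degradation, at 5.73 and 12.14 RPKM (1.08), and Ddit4, an inhibitor of mTOR signalling, at 19.63 and 30.88 RPKM (0.65).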

How the data were processed

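RNA from 1 WT and 1 G34R mouse ES cell culture was sequenced as 50 bp single-end reads from a stranded total RNA kit (500 ng of RNA, 12 cycles of amplification). Per the labels, the authors aligned reads to mm9 with STAR 2.4.2a, at default settings as the methods state. They then used Seqmonk to merge transcript isoforms and correct for length, and deposited RPKM per gene. RPKM is relative to the total of its own library, and the raw counts were not used here.

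Genes with at least 1 RPKM in 1 library were compared by the log2 of their G34R to WT quotient, with 0.01 RPKM as the lowest value. An exact tie with 1.5-fold was not counted as past it. With 1 library per group no test between the groups was run. Depth was inferred from the size of 1 read in RPKM, using genes of 1 exon, shorter than 800 bp and below 6 reads (97.3% of values in WT and 98.5% in G34R within 0.25 of a whole read), after matching 22075 probes to protein-coding genes of GENCODE M1 by name, chromosome and strand. Intervals (95%, exact binomial) use these estimated reads.

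Transcript windows of 50 bases and the 250 bases before transcript starts were read from the mm9 genome with GENCODE M1. A window across a junction counted its own spliced place once, and matches within its own gene counted as its own. Of the 10 member promoters, 6 were identical to a window of the RefSeq table for GRCm38. Those of Gpi1, Pfkp, Tpi1 and Ldha were not, so the stretches shown for Pfkp and Ldha rest on starts without such a match.

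The text names all members, the isozymes of their steps with at least 1 RPKM, genes of the other lists past 1.5-fold, and the 2 with the highest mean RPKM where none passed. Hif1a, Mycn, Lin28a, P4ha1, Slc2a1, Slc2a3, Slc16a1, Pkm2, Eno1, Pgam1, Pgam2 and Bpgm were named after their values were seen. The members and lists were chosen with earlier results of these data known. Other floors, scalings and filters were tried, and the calculations were tested on simulated data. Calculations ran in Python 3.11.15 with pandas 2.3.3, NumPy 2.4.6 and SciPy 1.17.1, and plots were drawn with matplotlib 3.10.9.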

Additional observations from a re-analysis of the deposited data

How the results depend on the processing

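No paired analysis was possible because each group has 1 library, and for the same reason no replicate could be left out. Over 38 results, 203 values were recomputed, of which 154 stayed within a set allowance and 49 moved past it. The allowance was for counting error, except that counts of members past a fold were allowed to differ by up to 1.5-fold. For a list's median the allowance was the median half-width of the counting intervals of its genes, which says nothing of its sign, and 10 recomputed medians of 4 lists changed sign. All 50 recomputed member differences kept their sign, which no setting tried could have changed, but 17 of them moved outside their counting interval. Aldoa, for instance, went from -0.10 (counting interval -0.12 to -0.09) to -0.05 once centred on all genes. The counts of members past either fold did not move. The median of the members was -0.15 both with both libraries scaled to the same sum and centred on all genes. It was -0.11 with a minimum of 10 RPKM, which leaves out only Gapdh. Leaving out Gapdh by name, a choice made after seeing the data, is therefore the same setting and gave the same value. The transport median, -0.03 as reported, was 0.016 under the same sum, 0.0244 under centring and 0.0242 with a minimum of 0.25 RPKM, of 10 RPKM or none, so it has no stable direction. The medians of other glycolytic genes and of regulators also turned positive, at most 0.02, under the same sum and under centring, and that of fructose bisphosphate regulation and gluconeogenesis, 0.23 as reported, turned negative with no minimum. With 1 RPKM added to each value, the shares in WT and G34R cells were 81.9% and 85.8% for Hk2, 61.8% and 65.4% for Pfkl, 98.3% and 98.1% for Aldoa, 87.3% and 92.2% for Eno1, 87.2% and 91.6% for Ldha, and 51.2% and 57.6% for Pdk1, and the primed marker median was -0.91. With a minimum of 0.25 RPKM, which adds low genes, medians were -0.15 for other glycolytic genes, 0.0037 for fructose bisphosphate regulation and gluconeogenesis, and -0.88 for primed markers. With no minimum the last 2 were -0.11 and -0.79. With a minimum of 10 RPKM, medians were -0.13 for other glycolytic genes, -0.74 for HIF-1 targets, -0.21 for regulators, -0.23 for naive and -0.88 for primed markers, over fewer genes. Depth limits Gapdh most, with the fewest estimated reads of the members.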

Other observations

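Branches that leave glycolysis were measured by 13 genes of serine, glycogen and hexosamine metabolism with at least 1 RPKM, of 15 listed, and their median log2 difference was -0.12. Past 1.5-fold 1 was lower and 2 were higher, beside 14.0% and 11.3% of all genes. Phgdh, which diverts 3-phosphoglycerate into serine synthesis, had 16.44 RPKM in WT and 29.22 RPKM in G34R (0.83). Pygb, a glycogen phosphorylase, had 2.80 and 8.61 RPKM (1.62). Ugp2, which makes UDP-glucose, was the 1 gene lower past 1.5-fold, at 7.29 and 4.75 RPKM (-0.62). Among the regulators named with glycolysis, Mycn had 30.37 and 23.29 RPKM and Lin28a 60.79 and 46.69 RPKM, both -0.38.

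The states between which these enzymes are known to differ were read from their own markers. Of 9 naive pluripotency markers with at least 1 RPKM, which had a median of -0.42 (-0.23 with a minimum of 10 RPKM), 4 were lower past 1.5-fold and 2 were higher, beside 14.0% and 11.3% of all genes. Zfp42 had 180.3 RPKM in WT and 16.4 RPKM in G34R (-3.46), Klf2 had 36.12 and 9.34 RPKM (-1.95), Nanog had 127.07 and 52.24 RPKM (-1.28) and Prdm14 had 6.19 and 3.48 RPKM (-0.83). Klf4, at 25.14 and 43.71 RPKM (0.80), and Klf5, at 26.08 and 52.35 RPKM (1.01), were higher. Of 6 primed markers with at least 1 RPKM, which had a median of -1.41, 4 were lower past 1.5-fold and 0 were higher, beside the same shares of all genes. The median was -0.88 with a minimum of 0.25 or 10 RPKM and -0.79 with none. The lower ones were Lefty2 at 37.82 and 3.89 RPKM (-3.28), Otx2 at 5.59 and 1.42 RPKM (-1.98), Zic2 at 2.01 and 0.52 RPKM (-1.95) and Nodal at 23.36 and 12.70 RPKM (-0.88). Both marker lists had negative medians under these settings, beside -0.20 for the glycolysis members and -0.05 for all genes. Whether the marker genes and the glycolytic enzymes are linked was not tested.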
